A study of Mus musculus with 6 samples.

Results

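The genes described here encode the matrix metalloproteinases (Mmp), the ADAMTS proteases with the protease-like Adamtsl proteins, and the tissue inhibitors of metalloproteinases (Timp). They were taken by name, as protein-coding mouse genes whose symbol starts with Mmp and a number or with Adamts, or is Timp1 to Timp4. The GENCODE annotation of mm10 holds 50 such genes, and 45 of them stood among the 23808 genes of the expression table, as 18 Mmp, 18 Adamts, 5 Adamtsl and 4 Timp genes. A gene was called detected at a mean of at least 1 FPKM over all libraries, which 20 of the 45 reached. FPKM is the number of fragments per kilobase of gene, scaled to all fragments, so levels can be set side by side between genes.

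Heart RNA came from female wild-type mice fed normal chow (NC) or a diet high in fat (HFD) from week 4 to week 12 of life. There were 3 libraries per diet, written NC 1 to NC 3 and HFD 1 to HFD 3, and values below follow that order. The sources used here give neither the strain nor the part of the heart nor the number of animals behind a library. Nothing in the labels states that the 3 libraries are different animals, so their spread, which the p-values measure, may be technical. In RNA from many cells a lower value can come from fewer cells of a type or from less RNA per cell, and these cannot be told apart.

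Mmp proteases cut collagens and other matrix proteins with a zinc ion in their active site, and are made as inactive precursors. ADAMTS proteases use the same chemistry on proteoglycans, procollagens and microfibril proteins, and Adamtsl proteins share their accessory domains but lack the protease domain. Timp proteins bind the active site of these proteases and block it. In the heart, fibroblasts make much of this system, which turns over the collagen network around the muscle cells.

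The libraries differed in ways that touch all genes. The summed FPKM lay between 694956 and 739406 on NC, and was 576334, 687877 and 708120 under HFD. HFD 1 was listed at 0 for 5 mitochondrial or mitochondria-like genes that were at 2516 FPKM or more in every other library, and none of them belongs to the families described. All 6 cardiomyocyte markers of a fixed list were detected, and 5 of 6 were lower on HFD, with sums of 23387 to 31030 FPKM under chow and 20511 to 22956 FPKM under HFD. Smooth muscle and pericyte markers were lower in 6 of 7 (235.1 to 307 against 181 to 234.8 FPKM). The summed level of 6 atrial markers ran from 352 to 13782 FPKM under chow and from 436 to 7043 FPKM under HFD. Fibroblast markers were lower on HFD in 7 of 8 genes, with sums of 634 to 1294 FPKM under chow and 689 to 1230 FPKM under HFD. Macrophage markers were lower in 6 of 6 (181 to 272 against 130 to 171 FPKM), and endothelial markers higher in 6 of 6 (569 to 1103 against 812 to 1569 FPKM). The part of any of these in the results below was not tested.

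The question was which of these genes have another mRNA level in the heart under HFD than under chow. The inhibitor genes Timp3 and Timp4 had the highest positive differences of the 20 detected genes, and the membrane-type protease gene Mmp14 and the stromelysin gene Mmp3 the lowest. Of the 7 detected Mmp genes 6 were lower on HFD, and of the 4 Timp genes 3 were higher, Timp1 among them by only 0.01 on the log2 scale. None of the 20 passed the test over all genes, in which 0% of 11456 tested genes passed (limma on log2(FPKM + 1), Benjamini-Hochberg adjusted p below 0.05). At an unadjusted limma p below 0.05 there were 3 of the 20 (15%), against 3.62% of all tested genes. Timp4 and Timp3 were higher on HFD (1.32% of all tested genes) and Mmp14 lower (2.3%). The 3 HFD values lay all on one side of the 3 NC values in 3 of the 20 (15%), against 8.13% of all tested genes. Timp3 lay above (3.25% of all tested genes), and Mmp14 and Mmp15 below (4.88%). With 20 genes, these shares rest on 3 genes each. The median log2 difference of the 20, HFD minus NC, was -0.0085, beside -0.019 over all tested genes, with 10 higher and 10 lower (50%), where 46.9% of all tested genes were higher and 53.1% lower.

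**Figure D1:**
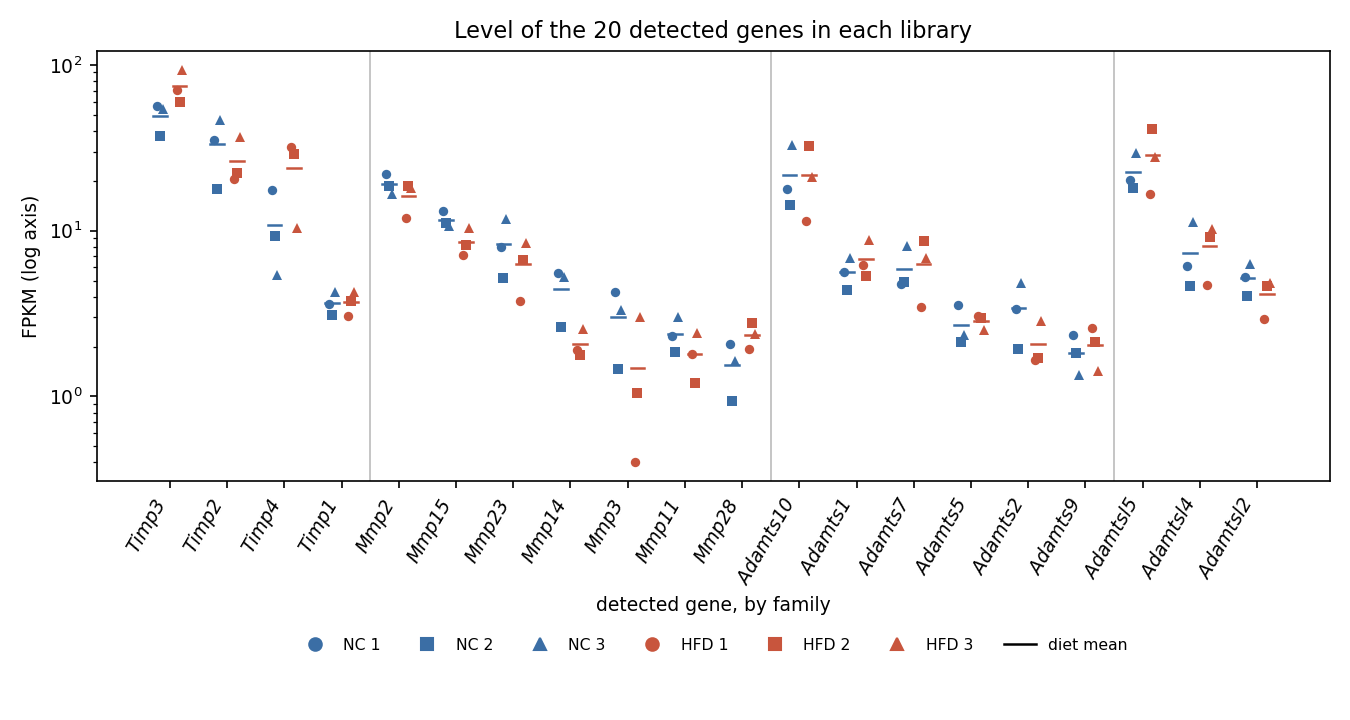
FPKM (log axis) of the 20 detected genes in each of the 6 libraries, by family, with NC in blue, HFD in red, a marker shape for each replicate number and a line at each diet's mean. Timp3 stands highest, and the HFD values of Mmp14 and Mmp15 lie below all their NC values.

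The inhibitors were the most abundant part of the system. Timp3, which binds to the matrix and also restrains ADAM and ADAMTS proteases, was at 56.8, 37.1 and 54.4 FPKM under chow and at 70.8, 59.6 and 92.7 FPKM under HFD. Every HFD library was above every NC library, although HFD 2 exceeded NC 1 only slightly. The means were 49.4 ± 10.8 FPKM under chow and 74.4 ± 16.8 FPKM under HFD (SD, n = 3 each), a log2 difference of 0.58 (SE 0.24, limma adjusted p = 0.9998). It was 0.39 without NC 2 and 0.73 without HFD 2.

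Timp4, the inhibitor known for its high level in heart, was at 17.7, 9.29 and 5.42 FPKM under chow and at 31.9, 29.0 and 10.4 FPKM under HFD. HFD 3 lay below NC 1, so the diets overlapped, while HFD 1 and HFD 2 were above every NC library. The means were 10.8 ± 6.28 and 23.8 ± 11.7 FPKM (SD, n = 3 each), a log2 difference of 1.06 (SE 0.43, limma adjusted p = 0.9998), which was the highest of the 20 genes. Leaving out NC 3 lowered it to 0.69 and leaving out HFD 3 raised it to 1.55. Timp4 is also known from fat tissue, and the summed level of 5 adipocyte markers was 67.2, 3.74 and 55.7 FPKM under chow and 1.04, 13.7 and 51.6 FPKM under HFD. Both Timp4 and these markers were highest of chow in NC 1, while in HFD 1 Timp4 was highest of its diet and the markers lowest. The part of fat tissue in the Timp4 levels was not tested.

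Timp2, which inhibits Mmp2 and also helps Mmp14 to activate it, was at 35.3, 17.8 and 46.4 FPKM under chow and at 20.4, 22.3 and 36.8 FPKM under HFD. The diets overlapped widely, with a log2 difference of -0.26 (SE 0.33) that was 0.024 without NC 3 and -0.64 without NC 2. Timp1, the member best known for its response to injury and inflammation, was the least abundant, at 3.60, 3.11 and 4.28 FPKM under chow and 3.06, 3.75 and 4.29 FPKM under HFD. Its log2 difference was 0.01 (SE 0.22), and its sign turned when NC 2, HFD 2 or HFD 3 was left out.

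3 of the inhibitor genes lie inside genes of the synapsin family on the opposite strand, by GENCODE annotation of mm10. Timp3 lies on chromosome 10 from 86300372 to 86349506 inside Syn3, Timp4 on chromosome 6 from 115241892 to 115252205 inside Syn2, and Timp1 on the X chromosome from 20870166 to 20874735 inside Syn1. Timp2 lies on chromosome 11 from 118301069 to 118355740. Exons of Syn3 cover 1733 bases (21.3%) of the exons of Timp3 and those of Syn2 cover 90 bases of Timp4, and the sources used here do not say whether reads were counted by strand. Syn3 was at a mean of 1.58 FPKM and Syn2 at 0.75 FPKM, both far under the inhibitor gene they enclose.

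Of the 6 membrane-type Mmp genes in the table, Mmp14 and Mmp15 were detected, and both had lower means on HFD without passing the test. Mmp14, which cuts fibrillar collagen at the cell surface and activates Mmp2, was at 5.55, 2.61 and 5.26 FPKM under chow and at 1.90, 1.79 and 2.56 FPKM under HFD. The diets did not overlap, but HFD 3 came close to NC 2. The means were 4.47 ± 1.62 and 2.08 ± 0.415 FPKM (SD, n = 3 each), a log2 difference of -0.79 (SE 0.27, limma adjusted p = 0.9998). This was the smallest unadjusted p of the 20 and stood at place 113 of all tested genes. It was -1.06 without NC 2 and -0.63 without NC 1, the ends of its range over single libraries left out.

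Mmp15, its close relative, was at 13.2, 11.1 and 10.7 FPKM under chow and 7.09, 8.22 and 10.4 FPKM under HFD. The diets were separate only narrowly, between HFD 3 and NC 3. The means were 11.7 ± 1.32 and 8.58 ± 1.69 FPKM (SD, n = 3 each), a log2 difference of -0.41 (SE 0.22, limma adjusted p = 0.9998), and -0.30 without HFD 1. The other membrane-type genes were under the threshold, with Mmp16 at a mean of 0.373 FPKM, Mmp17 at 0.282 FPKM, Mmp25 at 0.0222 FPKM and Mmp24 listed at 0 in every library.

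The sequences before the start sites of Timp3, Timp4, Mmp14 and Mmp15 are shown because each either kept the diets apart in every library or, like Timp4, had an unadjusted limma p below 0.05. Each is taken from the 250 bases before the RefSeq start in the GRCm38.p6 table, without bases that GENCODE places in the first exon (so 210 are printed for Timp3 and 222 for Mmp15), with a GC box (GGGCGG or CCGCCC), an AP-1 motif (TGACTCA or TGAGTCA) and a TATA box (TATAAA or TTTATA) in capitals, all searched on both strands. Timp3 (chr10:86300162-86300371, plus strand), Timp4 (chr6:115252206-115252455, minus strand), Mmp14 (chr14:54431348-54431597, plus strand) and Mmp15 (chr8:95352046-95352267, plus strand) read as follows.
Timp3: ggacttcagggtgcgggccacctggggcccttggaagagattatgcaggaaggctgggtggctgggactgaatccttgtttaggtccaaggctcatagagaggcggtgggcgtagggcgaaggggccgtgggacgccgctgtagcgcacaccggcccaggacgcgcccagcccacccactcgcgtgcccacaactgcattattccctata
Timp4: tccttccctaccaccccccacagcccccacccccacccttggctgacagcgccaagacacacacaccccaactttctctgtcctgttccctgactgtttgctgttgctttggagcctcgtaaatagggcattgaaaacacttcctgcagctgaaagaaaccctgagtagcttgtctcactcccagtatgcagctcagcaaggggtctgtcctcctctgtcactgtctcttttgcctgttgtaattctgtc
Mmp14: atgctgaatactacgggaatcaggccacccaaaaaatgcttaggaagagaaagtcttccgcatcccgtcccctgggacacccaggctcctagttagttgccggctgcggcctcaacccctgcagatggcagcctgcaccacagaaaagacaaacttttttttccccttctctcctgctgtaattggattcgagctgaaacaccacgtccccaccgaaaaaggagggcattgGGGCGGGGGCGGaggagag
Mmp15: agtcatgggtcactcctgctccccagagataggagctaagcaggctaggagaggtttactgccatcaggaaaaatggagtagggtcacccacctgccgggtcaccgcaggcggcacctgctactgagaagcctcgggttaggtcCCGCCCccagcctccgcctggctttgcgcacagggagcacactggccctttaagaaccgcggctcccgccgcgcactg
Timp3 held 1 GC box, 15 bases before the RefSeq start in the part not printed, Mmp15 held 1 at 106 bases, and Mmp14 held 2 back to back at 19 and 13 bases. Timp4 held none of the 3 motifs in this window. GC boxes stood in 32.7% of all 32851 promoters of this length, every start counted singly. They stood in 20 of the 30 genes of the families that had a promoter entry and were in the expression table, at any of a gene's starts. Of the detected genes, Adamts10, Adamts5, Adamts7 and Mmp2 had no entry.

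Mmp2, the gelatinase that cleaves denatured collagen and basement membrane collagen, was the most abundant protease of the Mmp family, at 22.0, 18.7 and 16.7 FPKM under chow and 11.9, 18.7 and 18.1 FPKM under HFD. Only HFD 1 stood under the NC range, and the log2 difference of -0.24 (SE 0.23) shrank to -0.045 without HFD 1. The other gelatinase gene, Mmp9, known from neutrophils and macrophages, was under the detection threshold and not tested. It was at 0.559, 0.271 and 0.685 FPKM under chow and at 0.0428, 0.184 and 0.0474 FPKM under HFD, every HFD library below every NC library. Without a filter on low values, the diets did not overlap in 6.85% of all genes, both directions counted. Of 5 neutrophil markers 4 were under 1 FPKM, and their summed level was 1.93 to 3.82 FPKM under chow and 1.88 to 4.98 FPKM under HFD. Macrophage markers were lower on HFD in 6 of 6, with sums of 181 to 272 FPKM under chow and 130 to 171 FPKM under HFD. The part of either cell type in the level of Mmp9 was not tested.

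Mmp3, a stromelysin that cleaves proteoglycans and activates other Mmp precursors, had the largest ratio of highest to lowest FPKM of the 20 genes. It was at 4.28, 1.46 and 3.30 FPKM under chow and at 0.403, 1.05 and 3.02 FPKM under HFD, a 10.6-fold range. HFD 1 and HFD 2 were below every NC library and HFD 3 was among them. The log2 difference was -0.76 (SE 0.38, limma adjusted p = 0.9998), and it was -0.41 without HFD 1 and -1.17 without HFD 3.

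Mmp3 was the only detected gene of the Mmp cluster on chromosome 9, which in mm10 runs from 7272514 to 7699585 and holds 10 annotated genes, 5 of them in the table. Next to it, Mmp12, Mmp13, Mmp27 and Mmp8 had means of 0.272, 0.21, 0.0708 and 0.00298 FPKM. By diet, Mmp12 was at a mean of 0.201 FPKM under chow and a higher 0.343 FPKM under HFD. Mmp13 was at 0.281 FPKM under chow and a lower 0.139 FPKM under HFD. Both overlapped between the diets and were not tested. Mmp13 is a collagenase and Mmp12 the macrophage elastase. The promoter of Mmp3 (chr9:7445572-7445821, plus strand) and the last 80 bases before the start of Mmp13 (chr9:7272434-7272513, plus strand) and Mmp12 (chr9:7347294-7347373, plus strand) are shown for the AP-1 motif they share. RefSeq gives Mmp12 2 starts, and the later is shown because it was picked for holding the motif. It lies inside the gene as GENCODE annotates it. No AP-1 motif stood before the earlier one.
Mmp3: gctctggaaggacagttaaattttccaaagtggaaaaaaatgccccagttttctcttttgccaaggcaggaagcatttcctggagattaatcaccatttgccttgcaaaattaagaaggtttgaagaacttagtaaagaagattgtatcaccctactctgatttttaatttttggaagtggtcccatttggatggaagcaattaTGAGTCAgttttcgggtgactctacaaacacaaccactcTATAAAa
Mmp13: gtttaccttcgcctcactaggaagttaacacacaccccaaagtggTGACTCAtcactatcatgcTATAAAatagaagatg
Mmp12: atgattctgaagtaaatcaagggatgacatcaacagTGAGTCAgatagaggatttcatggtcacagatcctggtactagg
Mmp3 and Mmp13 also held a TATA box, which began 7 and 16 bases before the start. TATA boxes stood in 12.4% of all promoters and in 5 of the 30 genes of the families with an entry and in the expression table. The AP-1 motif began 46 bases before the start in Mmp3, 35 in Mmp13 and 44 in Mmp12. It stood in 7 of the 10 genes of the cluster and in 0 of the 26 other genes of the families with an entry, against 4.46% of all promoters. A gene counted if any of its starts held the motif, while the share over all promoters counts every start singly. These are matches of letters, not measured binding. AP-1 is a pair of Fos and Jun family proteins. The 4 genes of the AP-1 and NF-kB list with the smallest p were Fos, Fosb, Junb and Jund. Each was lower on HFD with no overlap, as were 4.88% of all tested genes. They were picked by their p, and other AP-1 genes of the list overlapped between the diets. Jun had a log2 difference of -0.36 (SE 0.28) and Fosl2 one of 0.002 (SE 0.23). Fosb was at 2.17, 4.06 and 8.0 FPKM under chow and 0.0983, 1.2 and 0.713 FPKM under HFD. Of the 10 tested genes of that list 7 were lower, where 53.1% of all tested genes were. None passed the test (limma, smallest adjusted p = 0.352). At an unadjusted limma p below 0.05 there were 4, against 3.62% of all tested genes. The part of these regulators in the levels of Mmp3, Mmp12 and Mmp13 was not tested.

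Mmp23, a short Mmp without the hemopexin domain of most relatives, was at 7.97, 5.22 and 11.8 FPKM under chow and 3.79, 6.66 and 8.47 FPKM under HFD (log2 difference -0.35, SE 0.31, and -0.07 without HFD 1). Mmp11, a stromelysin already activated inside the cell by furin, was at 2.32, 1.85 and 3.01 FPKM under chow and 1.80, 1.21 and 2.43 FPKM under HFD (log2 difference -0.28, SE 0.24). Both overlapped between the diets. Mmp11 is uncertain, since 155 bases of its exons overlap Chchd10 on the opposite strand, which was at 655, 779 and 1011 FPKM under chow and 436, 680 and 654 FPKM under HFD. The part of these reads in the level of Mmp11 was not tested. Mmp28, known as epilysin, was the exception among the Mmp genes, at 2.08, 0.933 and 1.64 FPKM under chow and 1.94, 2.77 and 2.37 FPKM under HFD. Only HFD 1 lay within its NC range, and the log2 difference of 0.42 (SE 0.24) was 0.23 without NC 2. Mmp28 is uncertain too, since exons of the gene 1700020L24Rik on the opposite strand cover 466 bases (12.0%) of its exons. That gene was at 3.68, 1.15 and 2.91 FPKM under chow and 2.77, 3.72 and 3.33 FPKM under HFD. Its mean of 2.93 FPKM was above the 1.96 FPKM of Mmp28, and its libraries stood in the same order within each diet. The part of its reads in the level of Mmp28 was not tested.

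**Figure D2:**
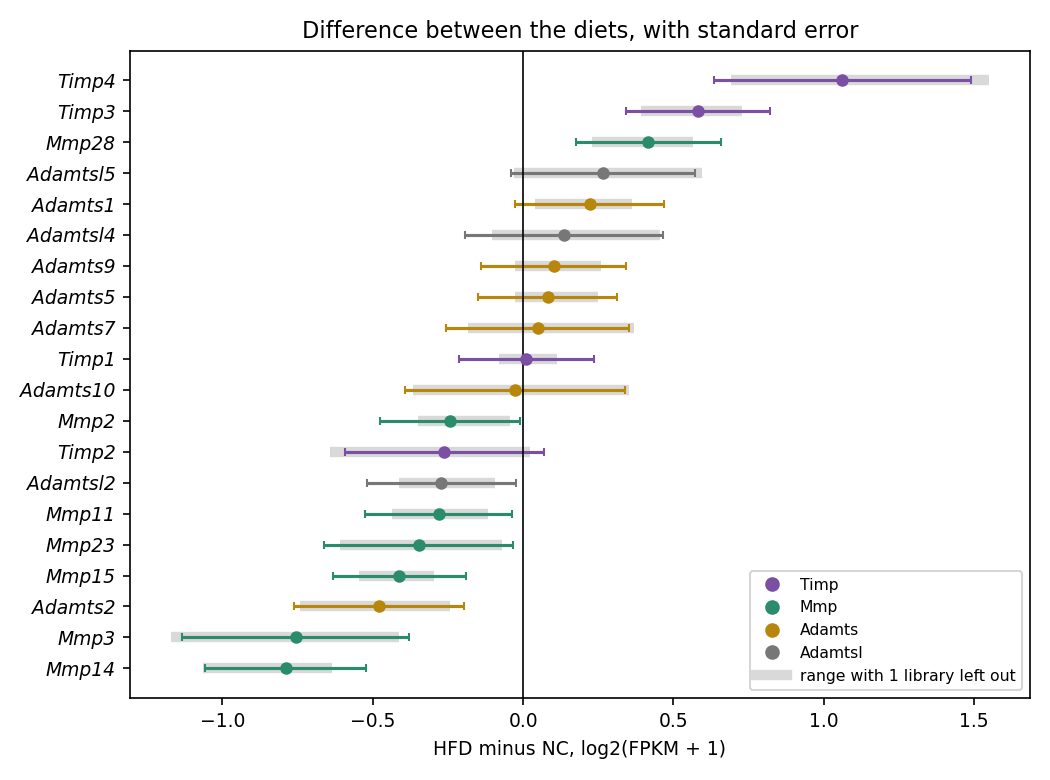
Difference between the diets (HFD minus NC, log2(FPKM + 1)) of the 20 detected genes, sorted, with points coloured by family, bars for the standard error and grey bands for the range when 1 library is left out. Timp4, Timp3 and Mmp28 lie highest, Mmp14 and Mmp3 lowest, and the bands of most Adamts and Adamtsl genes cross 0.

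The sum over the 18 Mmp genes, set against the sum over the 4 Timp genes, gave a ratio that does not depend on the scaling between libraries, and in it the diets did not overlap. Summed Mmp levels were 60.6, 43.9 and 55.2 FPKM under chow and 30.8, 41.7 and 51.1 FPKM under HFD, and summed Timp levels were 113, 67.3 and 111 FPKM under chow and 126, 115 and 144 FPKM under HFD. The Timp sums were separate, though HFD 2 was close to NC 1, and the Mmp sums overlapped. The ratio of Mmp to Timp was 0.534, 0.652 and 0.499 under chow and 0.244, 0.364 and 0.354 under HFD. Every HFD library was below every NC library, at means of 0.321 ± 0.0664 under HFD against 0.562 ± 0.08 under chow (SD, n = 3 each). The difference of -0.241 stayed between -0.272 and -0.196 with any 1 library removed. With the Adamts genes added to the Mmp genes, the ratio was 0.901, 1.12 and 1.07 on NC and 0.492, 0.844 and 0.681 on HFD. No test is given for these sums, which rest on a few abundant genes: Timp3 made up 49.2 to 64.3% of the Timp sum and Mmp2 30.3 to 44.8% of the Mmp sum. They are sums of mRNA levels and say nothing of enzyme activity.

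The ratio of Mmp14 to Timp2, partners in the activation of Mmp2, was 0.157, 0.147 and 0.113 on NC and 0.093, 0.0803 and 0.0695 on HFD. The diets did not overlap in this ratio either, while Mmp2 itself overlapped. It was chosen with the levels of its genes known and has no test.

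**Figure D3:**
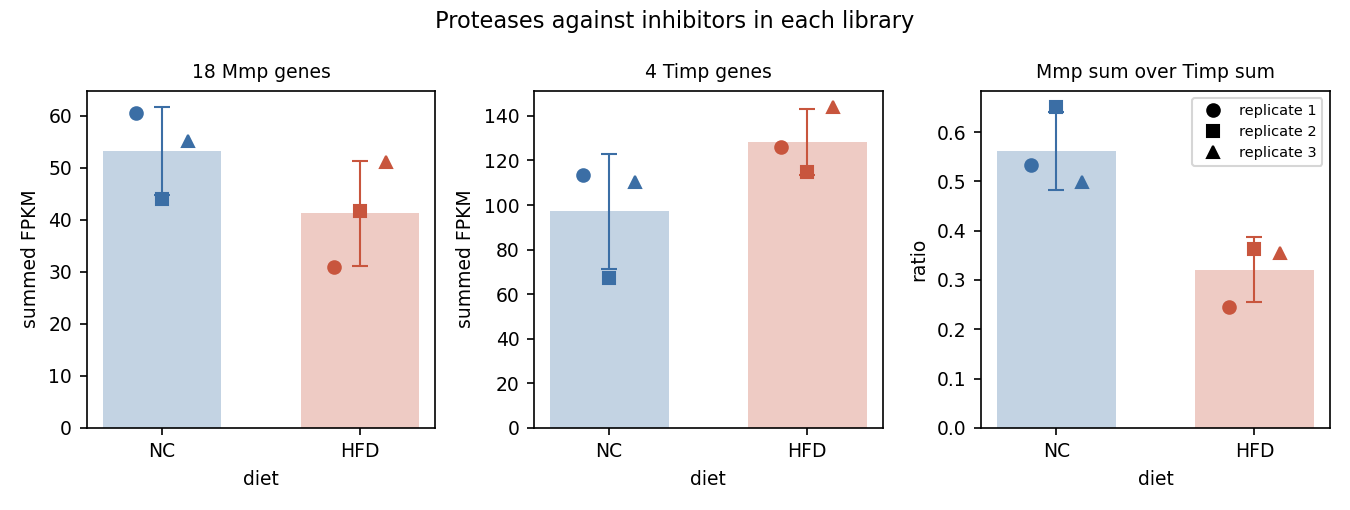
Summed FPKM of the 18 Mmp genes, summed FPKM of the 4 Timp genes and the ratio of the former to the latter in each library, with bars for the mean, error bars for the SD (n = 3 per diet) and a marker shape for each replicate number. The ratio lies between 0.499 and 0.652 on NC and between 0.244 and 0.364 on HFD.

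The ADAMTS proteases showed no common direction. Of the 6 detected ones 4 were higher and 2 lower on HFD (median log2 difference 0.065), and the split was 5 and 1 with equal FPKM sums or quantile normalization and 2 and 4 without NC 2. Adamts2, which removes the amino-terminal propeptide of fibrillar procollagens, had the smallest p of them. It was at 3.39, 1.94 and 4.86 FPKM under chow and at 1.66, 1.72 and 2.86 FPKM under HFD, with HFD 3 inside the NC range. Its log2 difference of -0.48 (SE 0.28, limma adjusted p = 0.9998) was -0.24 without NC 3 and -0.74 without NC 2. The other procollagen proteases, Adamts3 and Adamts14, had means of 0.797 and 0.258 FPKM and were not tested. Adamts14 was at 0.305 to 0.341 FPKM under chow and 0.152 to 0.247 FPKM under HFD.

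The proteoglycan-cleaving members Adamts1, Adamts5 and Adamts9, which cut versican and aggrecan, differed by less than their standard errors. Adamts1 was at 5.6, 4.41 and 6.88 FPKM under chow and 6.21, 5.30 and 8.82 FPKM under HFD (log2 difference 0.22, SE 0.25). Adamts5 was at 3.57, 2.13 and 2.35 FPKM under chow and at 3.08, 2.96 and 2.52 FPKM under HFD (0.08, SE 0.23), and Adamts9 at 2.34, 1.82 and 1.35 FPKM under chow and 2.58, 2.14 and 1.42 FPKM under HFD (0.10, SE 0.24). All 3 overlapped between the diets. Adamts1 and Adamts5 are neighbours on chromosome 16, from 85793827 to 85803113 and from 85856173 to 85901828, 53.1 kb apart. Of the other genes of this class, Adamts15 was just under the threshold at a mean of 0.95 FPKM, and Adamts8, Adamts20 and Adamts4 were at 0.339, 0.0989 and 0.0325 FPKM.

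Adamts10, which binds fibrillin microfibrils, was the most abundant ADAMTS protease gene. It was at 17.9, 14.2 and 32.9 FPKM under chow and 11.4, 32.5 and 21.2 FPKM under HFD, means of 21.7 ± 9.90 and 21.7 ± 10.6 FPKM (SD, n = 3 each). Its log2 difference was -0.03 (SE 0.37), and it was 0.35 without HFD 1 and -0.37 without HFD 2. Adamts7, which cleaves cartilage oligomeric matrix protein, was at 4.75, 4.90 and 8.05 FPKM under chow and 3.47, 8.63 and 6.88 FPKM under HFD (log2 difference 0.05, SE 0.30).

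The protease-like genes were led by Adamtsl5, a binding partner of fibrillin, at 20.2, 17.97 and 29.4 FPKM under chow and 16.6, 40.8 and 27.9 FPKM under HFD. The log2 difference was 0.27 (SE 0.31), and -0.03 without HFD 2. Adamtsl4, also a microfibril protein, was at 6.08, 4.65 and 11.3 FPKM under chow and 4.72, 9.14 and 10.3 FPKM under HFD (0.14, SE 0.33). Adamtsl2, which binds the latent TGF-beta binding proteins, was at 5.22, 4.03 and 6.32 FPKM under chow and 2.95, 4.65 and 4.82 FPKM under HFD (-0.27, SE 0.25). Adamtsl3 and Adamtsl1 had means of 0.764 and 0.443 FPKM.

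Libraries of one diet also differed from each other, and by these differences the genes fell into groups. NC 2 was the lowest NC library in 15 of the 20 genes, against 53.3% of all tested genes, and HFD 1 the lowest HFD library in 13, against 52%. The summed fibroblast markers were lowest in the same libraries, at 634 FPKM in NC 2 and 689 FPKM in HFD 1, near the 710 FPKM of HFD 2. So were those of macrophages (181 and 130 FPKM), adipocytes (3.74 and 1.04 FPKM), Schwann cells and mesothelium, and the summed FPKM of all genes. Cardiomyocyte, smooth muscle, endothelial, atrial, valve, neutrophil, erythroid and skeletal muscle markers did not share both positions. Taken singly, NC 3 was the highest NC library in 11 genes, against 39.1% of all tested genes, and HFD 3 the highest HFD library in 12, against 59.3%. Both held at once in 8 of the 20 genes (40%, against 21.1% of all tested genes). These were Timp2, Timp1, Mmp11, Mmp23, Adamts1, Adamts2, Adamtsl2 and Adamtsl4. The summed atrial and fibroblast markers were highest in NC 3 and HFD 3 too, the atrial ones at 13782 FPKM in NC 3 and 7043 FPKM in HFD 3. So were those of valve and cartilage, mesothelium and Schwann cells.

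Adamts10, Adamts7 and Adamtsl5 were highest in NC 3 and HFD 2, a pattern of 15.9% of all tested genes. Timp4, Adamts5 and Adamts9 were highest in NC 1 and HFD 1, which only 4.99% of all tested genes were, and all 3 were lowest in HFD 3. Summed endothelial markers were 1103, 703 and 569 FPKM under chow and 1453, 1569 and 812 FPKM under HFD. Within each diet they were also highest in NC 1 and lowest in HFD 3, but highest under HFD in HFD 2 and not in HFD 1. These groupings were made after the values were seen and carry no test.

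**Figure D4:**
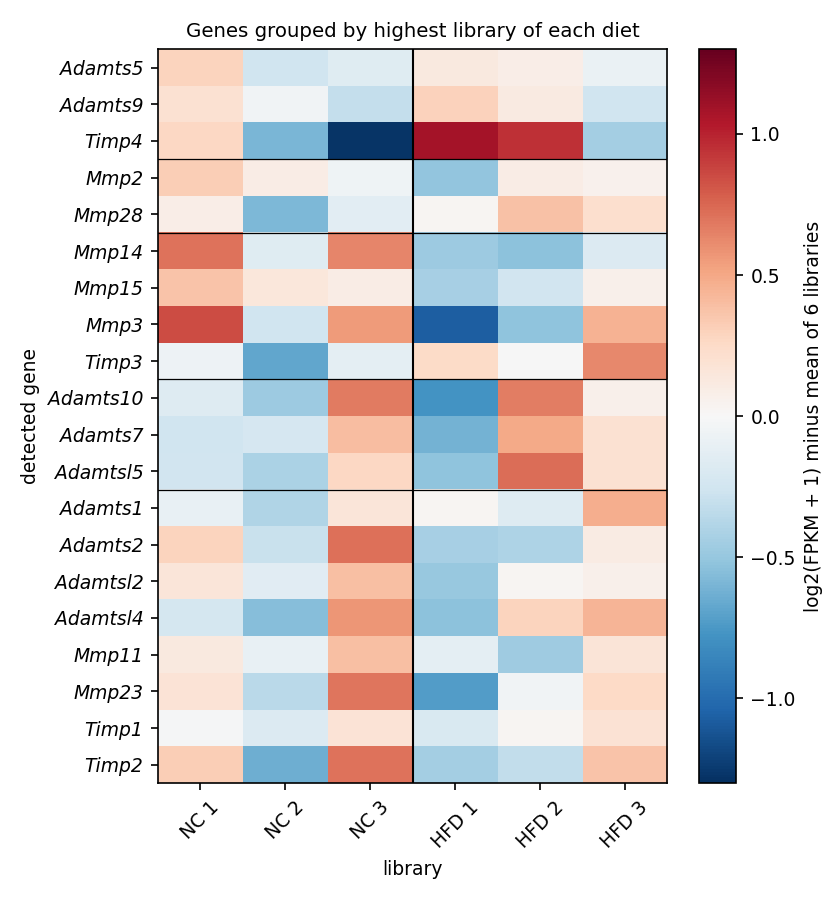
Level of the 20 detected genes in each library as log2(FPKM + 1) minus the gene's mean over the 6 libraries, red above and blue below it, with genes grouped by which library was highest in each diet. Values run from -1.27 to 1.08, both in Timp4, and most genes are blue in NC 2 and HFD 1.

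The detected genes nearest the threshold of 1 FPKM were Adamts9 (1.94 FPKM) and Mmp28 (1.96 FPKM), while Adamts15 (0.95 FPKM) and Mmp19 (0.947 FPKM) stood just under it. Of the 25 genes under it, 9 were listed at 0 in at least 1 library. These were Adamts8, Mmp27, Adamts4, Mmp25, Mmp21, Adamts18, Adamts16, Mmp8 and Mmp24, the last of them at 0 throughout. Adamts19, Adamts17, Adamts6 and Adamts12 completed the list, at means of 0.382, 0.326, 0.293 and 0.0653 FPKM. Adamts17 was below NC in every HFD library, at 0.249 to 0.927 FPKM under chow and 0.0996 to 0.192 FPKM under HFD. With low genes kept, the diets were apart in 6.85% of all genes, both directions counted. The expression of Adamts13, Mmp10, Mmp1b, Mmp20 and Mmp7 was not analysed here.

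The genes around these proteases were read from lists chosen beside the families. Of 15 tested genes that encode their substrates 14 were lower on HFD, where 53.1% of all tested genes were, and their median log2 difference was -0.36. None passed (limma, smallest adjusted p = 0.352). An unadjusted limma p below 0.05 was reached by 5 of the 15, against 3.62% of all tested genes. Next to the collagen genes Col3a1 and Col1a1, Col5a1, a minor chain of collagen fibrils, was at 5.08 ± 0.444 FPKM under chow and 3.37 ± 0.495 FPKM under HFD (SD, n = 3 each, log2 difference -0.48, SE 0.22). Col3a1, the substrate with the smallest p, was below NC in every HFD library (-1.38, SE 0.28), and Col1a1 overlapped (-0.98, SE 0.31). Comp, the cartilage oligomeric matrix protein that Adamts7 cleaves, was at 9.12, 3.95 and 16.4 FPKM under chow and 2.62, 1.07 and 8.75 FPKM under HFD (-1.19, SE 0.52), and its difference was -0.68 without HFD 2 and -1.80 without HFD 3. Comp is also one of the valve and cartilage markers, of which 4 of 4 tested were lower. The substrates Col1a1, Col1a2 and Dcn are also fibroblast markers, so these lists partly count the same genes.

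Activators and other inhibitors were mixed, with 5 of 15 tested genes higher and 10 lower, where 46.9% and 53.1% of all tested genes were. None passed (limma, smallest adjusted p = 0.9998). An unadjusted limma p below 0.05 was reached by 1 of them, against 3.62% of all tested genes. Serpinf1, a secreted serpin-family protein that blocks vessel growth, was at 41.6, 28.4 and 64.8 FPKM under chow and 16.99, 24.4 and 36.0 FPKM under HFD (log2 difference -0.76, SE 0.32), with HFD 3 inside the NC range and a value of -0.46 without NC 3. Lrp1, a receptor that clears proteases with their inhibitors, had a log2 difference of -0.38 (SE 0.32, -0.097 without NC 3) and the collagen-degrading cathepsin gene Ctsk one of -0.36 (SE 0.31, -0.077 without HFD 2).

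Of 6 tested ADAM proteases, relatives of the ADAMTS proteases anchored in the membrane, 4 were higher and 2 lower, where 46.9% and 53.1% of all tested genes were. None passed (limma, smallest adjusted p = 0.9998, with 0 at an unadjusted p below 0.05). Adam17, the sheddase that Timp3 is known to inhibit, had a log2 difference of 0.22 (SE 0.24), Adam15 one of 0.37 (SE 0.26), Adam9 one of 0.29 (SE 0.29) and Adam19 one of -0.46 (SE 0.25). All 4 overlapped between the diets. The value nearest 0 with 1 library left out was 0.06, 0.09, 0.03 and -0.26 in that order. Of 3 tested thrombospondin-repeat relatives of the Adamtsl proteins, Thsd1 was above NC in every HFD library (0.39, SE 0.25, and 0.14 without HFD 2), Papln had a log2 difference of 0.13 (SE 0.22) and Thsd7a one of -0.05 (SE 0.24). None of them passed (limma, smallest adjusted p = 0.9998, with 0 at an unadjusted p below 0.05).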

How the data were processed

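The deposited table holds FPKM values that the authors computed for each gene and library. Tools listed in the submitters' processing notes, with no role, are HISAT2 2.2.1, DESeq2 1.18.1, Trimmomatic 0.38, FastQC 0.11.9, R 3.4.1 and HTSeq 0.13.5, and the build is mm10. The sources used here do not give the program behind the FPKM or the handling of strand. Among genes under 0.3 FPKM, no step worth 1 read was found (2.59 to 5.32% of ratios to NC 1 in the commonest window of 0.04 log2), so no counts were recovered and the depth of each library is unknown. Symbols, types and coordinates came from GENCODE for mm10, matched by identifier for 23718 of 23808 genes.

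Values were transformed to log2(FPKM + 1), which understates changes of low genes. The 11456 genes averaging 1 FPKM or more were tested by diet in limma 3.58.1 (R 4.3.3) (moderated with a trend of variance on level, no covariates, two-sided, adjusted over all tested genes by Benjamini-Hochberg at 0.05), after a test on simulated data. Every gene of the families is named. Of each related list up to 4 genes with the smallest p are given, with Fos, Junb and Jund by direction only. Jun and Fosl2 are given besides. A gene of the list of activators and other inhibitors is not reported here. The families and lists were chosen with earlier results of these data known. Promoter sequences are RefSeq's for GRCm38.p6, found for 30 of the 45 genes, and the orientation of those printed was checked against annotated transcripts. Alternatives were 2 other filters, 3 scalings, a pseudocount of 0.1, no variance trend, the replicate number as a block and each library left out. 1 of the scalings, equal sums without the genes listed at 0, and leaving out libraries for the Mmp to Timp ratio were added after seeing the data. Plots came from matplotlib 3.10.9 (Python 3.11.15).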

Additional observations from a re-analysis of the deposited data

How the results depend on the processing

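In none of the settings other than the replicate block did any gene of the families pass. The pattern of 6 of 7 detected Mmp genes lower on HFD held in all 15 settings run, the main one included. Timp3, Timp4, Mmp14 and Mmp15 kept their directions in all of them. The other filters, the fit without a variance trend and the replicate block left each gene's difference unchanged, so they could not have altered a direction. Only the scalings, the other pseudocount and the left-out libraries could have done so. Equal FPKM sums moved the median of all tested genes by 0.111 (log2), from -0.019 to 0.092, with 34.9% of them lower in place of 53.1%.

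Without a filter on low values 19 of the genes were higher and 25 lower, and 6 did not overlap between the diets (13.6%, against 6.85% of all genes then tested). Quantile normalization gave 5 without overlap (25%, against 10.4%). Their median log2 difference of -0.0085 became 0.109 with equal FPKM sums, 0.00516 with quantile normalization and 0.0191 with equal sums without the genes listed at 0. Leaving out 1 library gave 3 to 7 genes without overlap (15 to 35%, against 15.2 to 21.4% of all tested genes, since 2 libraries against 3 are apart more often), 6 to 11 higher genes, medians from -0.18 to 0.0243 and 0 to 1 genes called over all genes, the 1 without NC 2. For Adamts10 the log2 difference was 0.097, 0.00341 and 0.000786 under these 3 scalings, and that of Thsd7a was 0.0289 with equal sums. Leaving out 1 library gave -0.643 to 0.0243 for Timp2, -0.0319 to 0.594 for Adamtsl5, -0.366 to 0.354 for Adamts10, -0.105 to 0.456 for Adamtsl4, -0.185 to 0.369 for Adamts7, -0.0794 to 0.111 for Timp1, -0.0262 to 0.248 for Adamts5, -0.0273 to 0.258 for Adamts9 and -0.171 to 0.143 for Thsd7a. The cause was not tested.

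With the replicate block 73 genes passed over all genes, and 1 of the families, Timp4 (limma adjusted p = 0.0144, against 0.9998 without the block), which was higher on HFD in 3 of 3 numbers. Of the related genes named, Col3a1, Col1a1, Comp, Fos, Fosb and Junb passed as well. The smallest limma adjusted p over all genes with the block was 1.42e-93. With 6 libraries so small a value rests on the variance that limma shares between genes. The p-values with the block therefore say little of each gene's own spread. The labels do not say that a number marks a shared animal or day. Deviations of same-numbered libraries from their diet means correlated at 0.193, 0.0864 and 0.275 over genes for numbers 1, 2 and 3, and NC 2 correlated best with HFD 1, so the numbers were not taken to pair the libraries. A mean of at least 0.5 FPKM counted 24 genes as detected. With unknown depth, the values under 1 FPKM carry no counting interval.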
